A study of Mus musculus with 12 samples.

Results

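The 9 genes described here encode integrin chains that T cells carry. They are the beta chains Itgb1, Itgb2, Itgb3 and Itgb7 and the alpha chains Itga4, Itga6, Itgae, Itgal and Itgav. They were chosen by name, with earlier results of these data known. All 9 were found in both expression tables, which hold 16232 genes in vivo and 24421 in vitro. Their transcripts were followed in 12 libraries of polyadenylated RNA from mouse regulatory T cells (Treg), the CD4 T cells that hold immune responses in check and express Foxp3. The 6 groups of 2 libraries were wild type (WT) and Kdm2b conditional knockout (cKO) Treg in vivo, WT and cKO Treg unstimulated in vitro, and WT and cKO Treg stimulated in vitro. All came from spleen and lymph nodes. The driver of the deletion, the age and strain of the mice, the stimulus and the culture time are not given in the sources used here, and nothing says whether the libraries of a group came from separate mice or cultures. KDM2B recognises unmethylated CpG through its CXXC domain and brings the Polycomb complex PRC1.1 to CpG islands.

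Integrins are adhesion receptors made of 1 alpha and 1 beta chain, and the pair sets the ligand. Alpha L with beta 2 forms LFA-1, which binds ICAM proteins on other immune cells and on endothelium. Alpha 4 with beta 1 (VLA-4) binds VCAM-1 and fibronectin, whereas alpha 4 with beta 7 binds MAdCAM-1 and directs lymphocytes to the gut. Alpha E with beta 7 (CD103) binds E-cadherin on epithelium, and alpha 6 with beta 1 binds laminin. Alpha V pairs with several beta chains, among them beta 1, beta 3, beta 5 and beta 8, and alpha V beta 8 on Treg is known for releasing active TGF-beta from its latent form. Because alpha 4 chooses between beta 1 and beta 7, and beta 1 serves many alpha chains, the members are given below by chain and then by pair.

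Levels are FPKM, in which fragments are normalised for transcript length and library size, so levels of different genes can be set side by side. Sums over all genes ran from 461753 to 475374 FPKM per library in vivo and from 369720 to 438763 in vitro. The depth in reads is unknown. WT replicate 2 had the most genes listed at 0, 12379 unstimulated and 13273 stimulated, and the remaining cultured libraries had 9102 to 9857. Kdm2b itself did not pass the test in any genotype comparison, with 113 and 110 FPKM in WT and 146 and 125 in cKO in vivo, and adjusted p of 0.354 in vivo, 0.978 unstimulated and 0.778 stimulated (limma). Its FPKM covers all exons together and would not reveal a deleted one, so it checks no label, and WT and cKO mean the libraries labelled so. The 12 Treg marker genes, Foxp3 among them, were above 0 in every library. Their summed level was 2428 and 2576 FPKM in WT and 2335 and 2470 in cKO in vivo, 1567 and 1590 against 1306 and 1426 unstimulated, and 2651 and 3026 against 2221 and 2298 stimulated. Foxp3 was 106 ± 0.552 FPKM in WT and 116 ± 2.4 in cKO in vivo (SD, n = 2 each), 192 ± 3.72 against 77.0 ± 7.89 unstimulated and 613 ± 118 against 253 ± 21.2 stimulated. None of the 12 was called for genotype in any setting (limma). Over all genes the called share was 0.374% in vivo, 0.0747% unstimulated and 0.0187% stimulated. At an unadjusted p under 0.05 there were 8, 4 and 3 of the 12 in these settings, against 13.0%, 6.56% and 14.1% of all genes. The part of the Treg markers in the integrin values was not tested.

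Itgb1 lies on chromosome 8 from 128685654 to 128733200 of GRCm38 (GENCODE annotation), plus strand, Itgb7 on chromosome 15 from 102215995 to 102231944, minus strand, and Itga4 on chromosome 2 from 79255426 to 79333123, plus strand. Itga6 (71745616 to 71858416) and Itgav (83724397 to 83806916) are on chromosome 2 as well, both on the plus strand. Itgb2 is on chromosome 10 (77530252 to 77565708), Itgb3 and Itgae are on chromosome 11 (104608000 to 104670476 and 73090583 to 73147446), and Itgal is on chromosome 7 (127296260 to 127335138), all on the plus strand. Itga4 shares 1124 of its 13978 exonic bases with Cerkl, and Itgav shares 634 of 10744 with Gm13684, each on the opposite strand. Whether the libraries kept strand is not given, so reads there cannot be told apart. The other 7 members share no exonic base with another annotated gene.

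Promoter entries were held for 4 of the 9 members, Itgb1, Itgb7, Itga4 and Itgav. The 250 bases before the start are printed for alpha 4 and the beta chains it can pair with, because alpha 4 can take either beta chain and Itgb1 is the member called between the genotypes below. They come from RefSeq on GRCm38.p6 and are written 5′ to 3′ on the gene's strand, with each CG, the dinucleotide KDM2B recognises, in capitals. The windows are chr8:128685404-128685653 (plus) for Itgb1, chr15:102231936-102232185 (minus) for Itgb7 and chr2:79255176-79255425 (plus) for Itga4. The start is that of RefSeq, and for Itgb7 it lies inside the gene as GENCODE gives it (to 102231944). The last bases printed for Itgb7 thus fall within that gene.
Itgb1: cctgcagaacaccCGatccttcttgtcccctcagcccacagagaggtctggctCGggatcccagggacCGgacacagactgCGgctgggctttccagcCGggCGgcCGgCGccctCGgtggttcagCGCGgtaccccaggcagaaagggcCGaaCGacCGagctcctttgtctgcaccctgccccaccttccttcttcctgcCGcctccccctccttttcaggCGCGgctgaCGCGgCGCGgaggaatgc
Itgb7: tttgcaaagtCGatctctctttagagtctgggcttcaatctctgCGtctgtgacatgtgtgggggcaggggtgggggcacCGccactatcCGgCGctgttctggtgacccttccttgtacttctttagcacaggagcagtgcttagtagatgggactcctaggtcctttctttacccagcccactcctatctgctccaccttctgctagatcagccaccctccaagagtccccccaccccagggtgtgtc
Itga4: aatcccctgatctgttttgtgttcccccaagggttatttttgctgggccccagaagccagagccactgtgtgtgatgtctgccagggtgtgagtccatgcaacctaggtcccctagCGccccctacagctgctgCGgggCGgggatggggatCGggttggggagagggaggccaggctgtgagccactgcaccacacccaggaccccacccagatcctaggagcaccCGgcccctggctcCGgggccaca
The Itgb1 window holds 21 CG, more than 83.7% of the 32851 RefSeq windows of this length, whose median is 6.0. The Itga4 window holds 6 CG (more than 49.6% of windows) and the Itgb7 window 5 (44.4%). That of Itgav, a member not called between genotypes and not printed, holds 18 (78.3%). A CG is present in 92.1% of all windows, so its presence sets no member apart. The GC box GGGCGG, read on both strands and partly overlapping CG, was found 1 time in the Itgb1 window and 1 time in the Itga4 window, in neither of the other members' windows, and in 32.7% of all windows. These are matches of letters. Neither binding nor methylation was measured here.

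**Figure D1:**
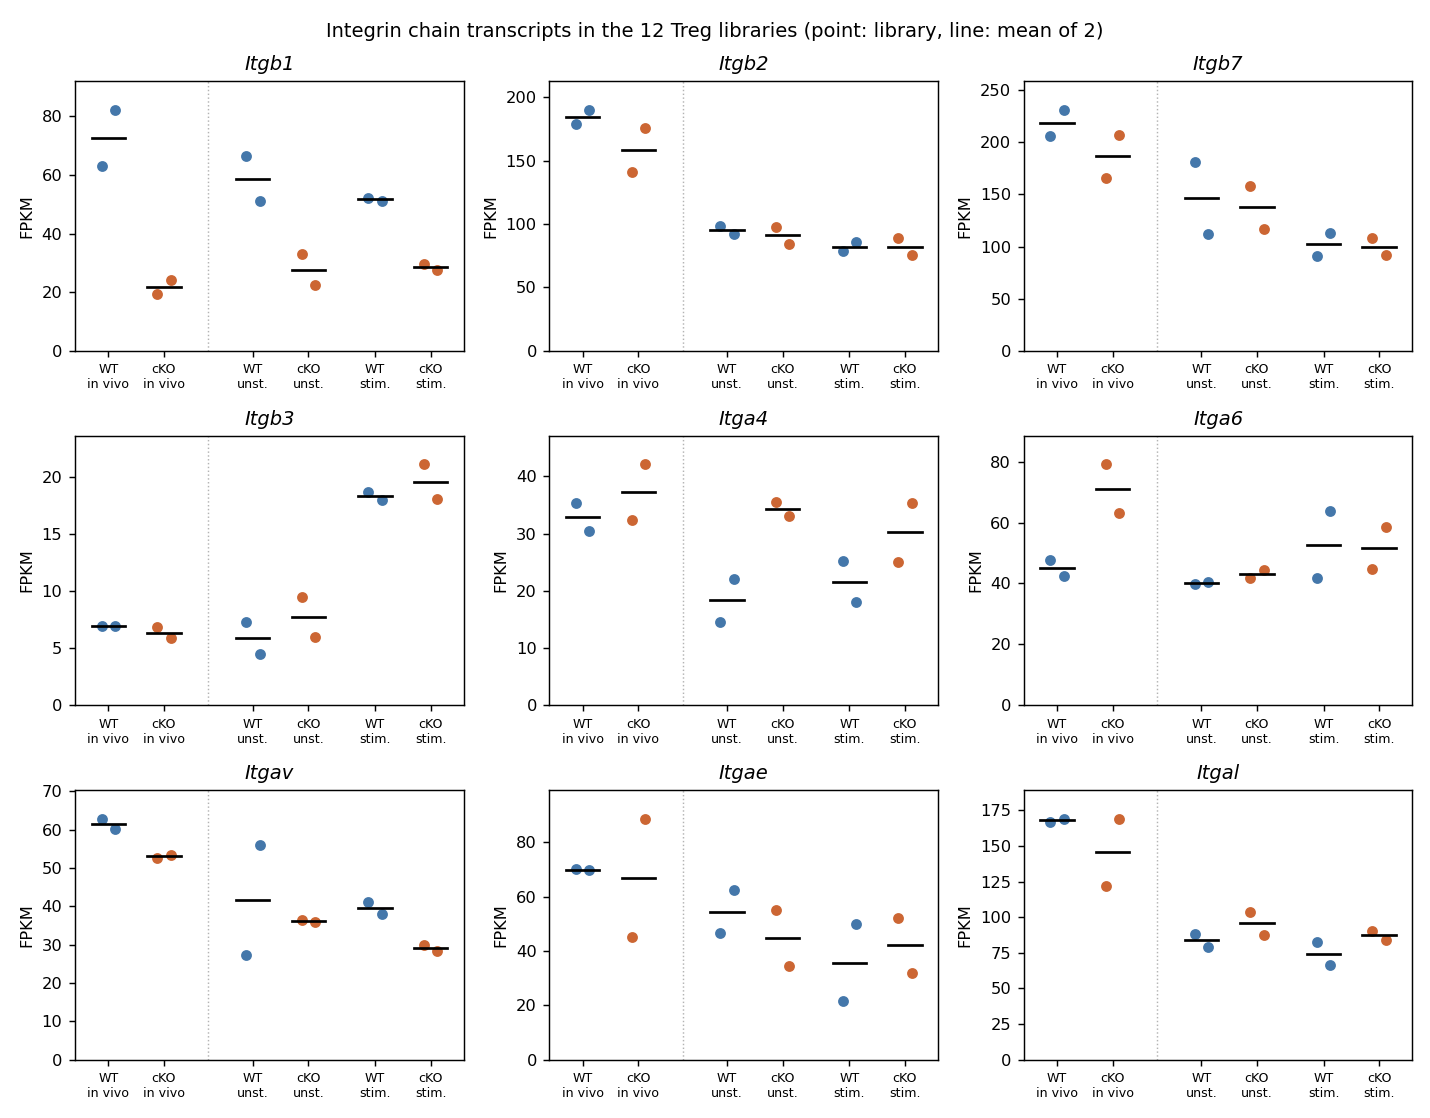
Level of each integrin chain in FPKM (vertical axes from 0, scaled per gene) in the 6 groups; each point is 1 library, each black line the mean of 2, WT in blue and cKO in orange, with the in vivo table left of the dotted line. Itgb1 is lower in cKO in all 3 settings, with WT libraries between 51.1 and 82.2 and cKO libraries between 19.4 and 32.9, and Itgb3 is higher in all 4 stimulated libraries than in the other 8.

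The most abundant chains were the same in every library. Itgb7 was first among the 9 in all 12 libraries, from 90.9 to 231 FPKM, and Itgal and Itgb2, the chains of LFA-1, took the second and the third place, from 66.4 to 169 and from 75.4 to 190 FPKM. These levels stood between the 96.3 and 98.8 percentile of all genes in their tables. Itgb3 was last in all 12, from 4.53 to 21.1 FPKM. Between them lay Itgb1, Itga4, Itga6, Itgae and Itgav, whose order changed from group to group.

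In WT in vivo the order by mean was Itgb7, Itgb2, Itgal, Itgb1, Itgae, Itgav, Itga6, Itga4 and Itgb3. Libraries of neighbours in this order overlapped for 1 pair, Itgb1 and Itgae. In the cKO libraries in vivo the order was Itgb7, Itgb2, Itgal, Itga6, Itgae, Itgav, Itga4, Itgb1 and Itgb3, and the neighbours overlapped from Itgb7 through Itgal and from Itga6 through Itgav. Itgb1 thus stood at the fourth place in WT and at the eighth in cKO. In vitro it was at the fourth place in unstimulated WT and the fifth in stimulated WT, and at the eighth in both cKO groups.

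In unstimulated WT the order was that of WT in vivo, with overlap from Itgb1 through Itga6. In unstimulated cKO it was Itgb7, Itgal, Itgb2, Itgae, Itga6, Itgav, Itga4, Itgb1 and Itgb3, with overlap between Itgal and Itgb2 and between Itgae and Itga6. After stimulation the middle of the order was less distinct: in WT it ran Itga6, Itgb1, Itgav, Itgae and Itga4 and in cKO Itga6, Itgae, Itga4, Itgav and Itgb1. All neighbours in these middle stretches overlapped except Itgb1 and Itgav in WT, as did Itgb2 and Itgal in both genotypes and Itga4 and Itgb3 in WT. Itga6 varied least over the 12 libraries, from 39.9 to 79.1 FPKM (1.98-fold), and Itgb3, Itgb1 and Itgae varied most (4.67, 4.24 and 4.13-fold). The in vivo and in vitro tables were made separately, so levels in them are set side by side without a test.

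Itgb1, the shared beta chain of the fibronectin, laminin and VCAM-1 receptors, was the member with the largest difference between genotypes. In vivo it stood at 63.2 and 82.2 FPKM in the WT libraries and at 19.4 and 24.1 FPKM in the cKO libraries. Both cKO libraries lay well under both WT libraries, and Itgb1 fell in cKO (log2 fold change on FPKM + 1 of -1.69, SE 0.16, 95% interval -2.08 to -1.30, adjusted p = 0.0261, limma). It was the only member of 9 called at an adjusted p under 0.05, where 0.374% of the 10415 genes tested were called in either direction and 0.144% as lower. Because these are bulk libraries, fewer cells with the transcript and less of it per cell cannot be told apart.

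In culture Itgb1 stood at 66.5 and 51.1 FPKM in unstimulated WT and at 32.9 and 22.5 in unstimulated cKO. Stimulated, WT libraries had 52.3 and 51.2 FPKM and cKO libraries 29.7 and 27.7. The genotypes again did not overlap, and the cKO mean was 0.471 of the WT mean unstimulated and 0.554 stimulated, against 0.299 in vivo. These differences did not pass the threshold over all genes: the log2 fold change was -1.07 unstimulated (SE 0.21, interval -1.55 to -0.59, adjusted p = 0.175, limma) and -0.83 stimulated (SE 0.21, interval -1.31 to -0.35, adjusted p = 0.167). Itgb1 was the single member whose cKO libraries were below the WT libraries in all 3 settings, which held for 3.65% of the 9842 genes tested in both tables. No member was above in all 3, against 2.42% of genes. Over every alternative the log2 fold change of Itgb1 stayed between -1.88 and -1.50 in vivo, -1.34 and -0.81 unstimulated and -0.90 and -0.72 stimulated.

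Itgb2, the beta chain of LFA-1, had 179 and 190 FPKM in WT and 141 and 176 in cKO in vivo. Both cKO libraries were lower, by a small margin for the second (log2 fold change -0.22, SE 0.12, adjusted p = 0.483, limma). In vitro the genotypes overlapped, with 98.2 and 92.0 against 97.6 and 84.4 FPKM unstimulated and 78.9 and 85.6 against 88.7 and 75.4 stimulated. Its 95% interval in stimulated cells ran from -0.34 to 0.33 on the log2 scale.

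Itgb7, which pairs with alpha 4 and alpha E, had 206 and 231 FPKM in WT and 166 and 207 in cKO in vivo. The second cKO library lay between the WT libraries, and the log2 fold change was -0.23 (SE 0.13, adjusted p = 0.483, limma). Unstimulated it had 181 and 112 FPKM in WT and 158 and 117 in cKO, and stimulated 90.9 and 113 in WT and 108 and 91.5 in cKO. In both culture states the cKO libraries lay inside the range of the WT libraries (log2 fold changes of -0.06, adjusted p = 0.987, and -0.02, adjusted p = 0.978).

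Itgb3, the beta chain of the vitronectin receptor, had 6.94 and 6.91 FPKM in WT and 6.84 and 5.89 in cKO in vivo (log2 fold change -0.11, SE 0.13, adjusted p = 0.74, limma). The cKO libraries were lower, the first only slightly. In vitro the genotypes were at 7.31 and 4.53 against 9.47 and 6.01 FPKM unstimulated and at 18.7 and 18.0 against 21.1 and 18.1 stimulated, with log2 fold changes of 0.34 (adjusted p = 0.917) and 0.09 (adjusted p = 0.907).

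Among the alpha chains, Itga6, the laminin receptor chain, showed the largest difference in vivo. It had 47.6 and 42.4 FPKM in WT and 79.1 and 63.0 in cKO. Both cKO libraries were above both WT libraries, with a mean 1.58 times that of WT, but the difference did not pass over all genes (log2 fold change 0.64, SE 0.14, interval 0.31 to 0.97, adjusted p = 0.13, limma). In culture the genotypes were close, at 39.9 and 40.5 against 41.7 and 44.3 FPKM unstimulated and at 41.8 and 63.7 against 44.7 and 58.4 stimulated. The corresponding log2 fold changes were 0.10 (adjusted p = 0.978) and -0.02 (adjusted p = 0.984), the second of which was between 0.02 and 0.09 under median-of-ratios scaling, quantile normalization and removal of haemoglobin genes.

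Itga4, the chain of VLA-4 and of the gut-homing receptor, overlapped between genotypes in vivo, with 35.3 and 30.5 FPKM in WT and 32.4 and 42.1 in cKO. Unstimulated in vitro it was higher in both cKO libraries, at 35.5 and 33.0 FPKM against 14.6 and 22.1 in WT. This was a mean 1.87 times that of WT (log2 fold change 0.89, SE 0.26, interval 0.29 to 1.49, adjusted p = 0.465, limma), which did not pass over all genes. Stimulated WT libraries had 25.2 and 18.0 FPKM and cKO libraries 25.0 and 35.4, where the lower cKO library fell just inside the WT range (log2 fold change 0.46, adjusted p = 0.462).

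Itgav, the alpha chain of the receptors for vitronectin and latent TGF-beta, had 62.8 and 60.2 FPKM in WT and 52.6 and 53.5 in cKO in vivo. Stimulated in vitro it had 41.2 and 37.9 FPKM in WT and 29.9 and 28.3 in cKO. In both settings the cKO libraries were lower without overlap, and neither difference passed (log2 fold change -0.21, SE 0.09, adjusted p = 0.413 in vivo, and -0.43, SE 0.29, adjusted p = 0.536 stimulated, limma). Unstimulated, the WT libraries were far apart at 27.2 and 56.1 FPKM and the cKO libraries lay between them at 36.5 and 36.0. Without WT replicate 2 the unstimulated log2 fold change of Itgav went from -0.11 to 0.40, so 1 library set its sign.

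Itgal, the alpha chain of LFA-1, had 167 and 169 FPKM in WT and 122 and 169 in cKO in vivo, so that the genotypes met at the upper end. Unstimulated it had 88.1 and 79.3 FPKM in WT and 104 and 87.7 in cKO, and stimulated 82.5 and 66.4 in WT and 90.6 and 83.9 in cKO. In stimulated cells both cKO libraries were above both WT libraries (log2 fold change 0.23, SE 0.16, adjusted p = 0.542, limma).

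Itgae, the alpha E chain found on tissue-associated Treg, had 70.2 and 69.7 FPKM in WT and 45.3 and 88.7 in cKO in vivo. It had 46.7 and 62.4 FPKM in unstimulated WT, 55.0 and 34.4 in unstimulated cKO, 21.5 and 50.1 in stimulated WT and 52.3 and 32.0 in stimulated cKO. Except in WT in vivo the libraries of each group lay apart, and the genotypes overlapped in all 3 settings. The log2 fold changes were -0.14 in vivo (SE 0.28, interval -0.81 to 0.53, adjusted p = 0.853, limma), -0.31 unstimulated (SE 0.42, interval -1.27 to 0.66) and 0.31 stimulated (SE 0.42, interval -0.66 to 1.27). These intervals reach past a doubling in stimulated cells, so a sizeable difference in Itgae was not detectable with these libraries.

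**Figure D2:**
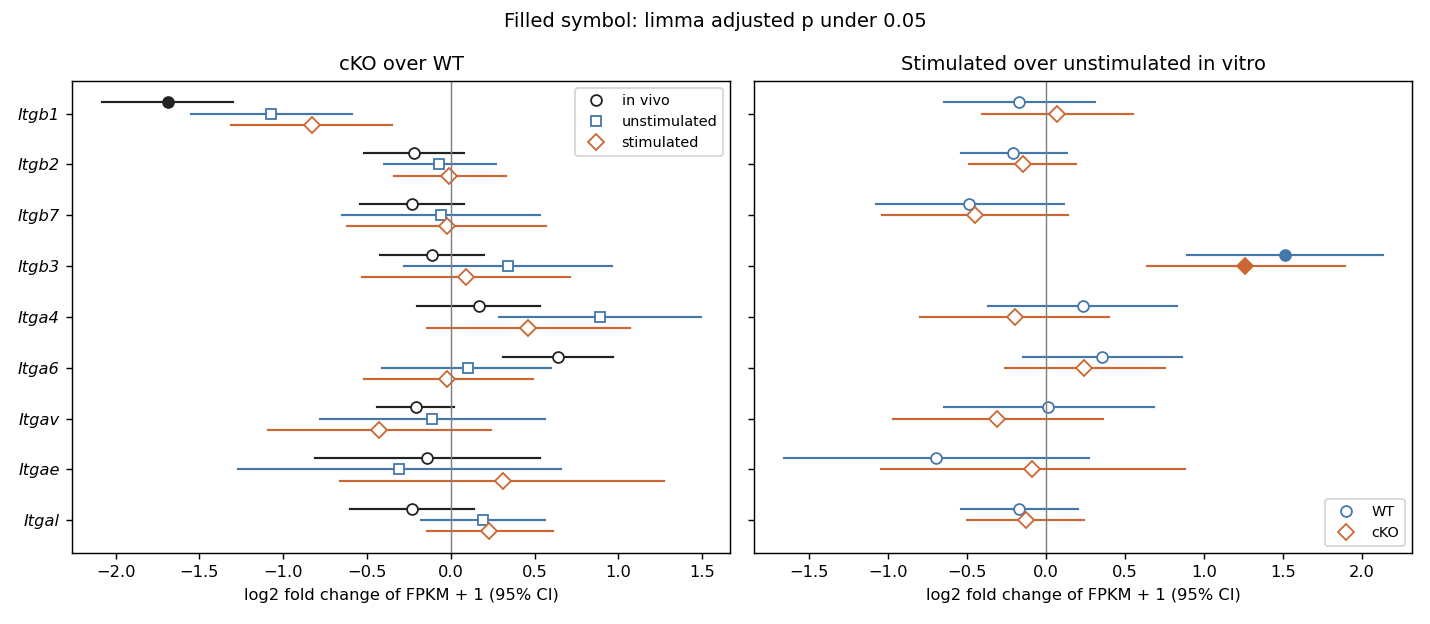
Log2 fold change of FPKM + 1 (horizontal axes) of each integrin chain, cKO over WT at left for the 3 settings and stimulated over unstimulated at right for the genotypes; bars are limma's 95% intervals and filled symbols mark an adjusted p under 0.05. Itgb1 in vivo (-1.69) is the 1 filled symbol at left, and Itgb3 (1.51 in WT, 1.26 in cKO) the only gene filled at right.

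In counts, cKO and WT libraries in vivo did not overlap for 5 members, Itga6 higher and Itgb1, Itgb2, Itgb3 and Itgav lower. Among all genes tested, 21.5% were higher without overlap and 25.8% lower. An unadjusted p under 0.05 was reached by 2 members (Itgb1 and Itga6) and by 13.0% of genes, and the median log2 fold change was -0.21 over the members and -0.02 over all genes. The in vivo count of 1 called member moved with 1 library: without the second cKO column 6 members were called, Itgb2 (log2 fold change -0.38), Itgb7 (-0.39), Itga6 (0.80), Itgae (-0.62) and Itgal (-0.46) besides Itgb1, and without the first cKO column 2, Itgb1 and Itga6 (0.48). With a single cKO library left, its spread is taken from the WT libraries.

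Unstimulated in vitro limma called 0 of 9 members and 0.0747% of genes (0.056% higher and 0.0187% lower), and 2 members (Itgb1 and Itga4) had an unadjusted p under 0.05, against 6.56% of genes. Itga4 and Itga6 were higher without overlap (17.8% of genes) and Itgb1 lower (16.6%). Stimulated, limma called 0 of 9 members and 0.0187% of genes, with 1 member (Itgb1) at an unadjusted p under 0.05, against 14.1% of genes. Itgal was higher without overlap (18.5% of genes), and Itgb1 and Itgav were lower (29.8%). The median log2 fold change of the members was -0.06 unstimulated, where all genes had 0.02, and -0.01 stimulated, where all genes had -0.05.

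Set as pairs, the transcripts of alpha 4 and beta 1 changed places. In vivo WT libraries had an Itga4 to Itgb1 ratio of 0.559 and 0.370 and cKO libraries one of 1.67 and 1.74. WT libraries held more beta 1 than alpha 4 transcript, and cKO libraries more alpha 4. The ratio was 0.220 to 0.432 in unstimulated WT against 1.08 to 1.47 in cKO, and 0.352 to 0.481 in stimulated WT against 0.844 to 1.28 in cKO. The genotypes were thus apart in all 3 settings, and how many other gene pairs are so was not computed. These ratios contain the Itgb1 difference already given, and a ratio of transcripts is not one of proteins.

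The other partners of beta 1 gave the same order of genotypes. Their ratios, and that of Itgb1 to Itgb7 below, contain the same Itgb1 values and are no separate result. The Itga6 to Itgb1 ratio was 0.516 to 0.754 in WT and 2.61 to 4.08 in cKO in vivo, 0.6 to 0.791 and 1.27 to 1.97 unstimulated, and 0.799 to 1.25 and 1.51 to 2.11 stimulated. The Itgav to Itgb1 ratio was 0.731 to 0.995 in WT and 2.22 to 2.71 in cKO in vivo, 0.410 to 1.10 and 1.11 to 1.60 unstimulated, and 0.740 to 0.787 and 1.01 to 1.02 stimulated. For Itgav the unstimulated groups nearly touched. Between the beta chains that alpha 4 can take, the Itgb1 to Itgb7 ratio was 0.307 to 0.356 in WT and 0.116 to 0.117 in cKO in vivo, so beta 7 transcript exceeded beta 1 in both genotypes and by more in cKO. In vitro this ratio was 0.367 to 0.458 against 0.192 to 0.208 unstimulated and 0.454 to 0.576 against 0.274 to 0.302 stimulated.

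Among the pairs without beta 1, the Itga4 to Itgb7 ratio was 0.132 to 0.171 in WT and 0.195 to 0.203 in cKO in vivo, 0.0806 to 0.198 and 0.225 to 0.282 unstimulated, and overlapping at 0.159 to 0.277 and 0.231 to 0.387 stimulated. For alpha E beta 7 the Itgae to Itgb7 ratio overlapped between genotypes in every setting, within 0.236 to 0.559 over all 12 libraries. The LFA-1 chains stayed nearly equal, the Itgal to Itgb2 ratio lying between 0.775 and 1.11 in all 12. It overlapped between genotypes in vivo (0.893 to 0.934 in WT, 0.864 to 0.960 in cKO) and stimulated (0.775 to 1.05 and 1.02 to 1.11). Unstimulated it was higher in cKO (0.861 to 0.897 and 1.04 to 1.07). The share of all gene pairs whose ratios stand apart so was not computed, so no ratio is set off from other pairs. Of single genes, 17.8% were higher and 16.6% lower without overlap unstimulated.

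**Figure D3:**
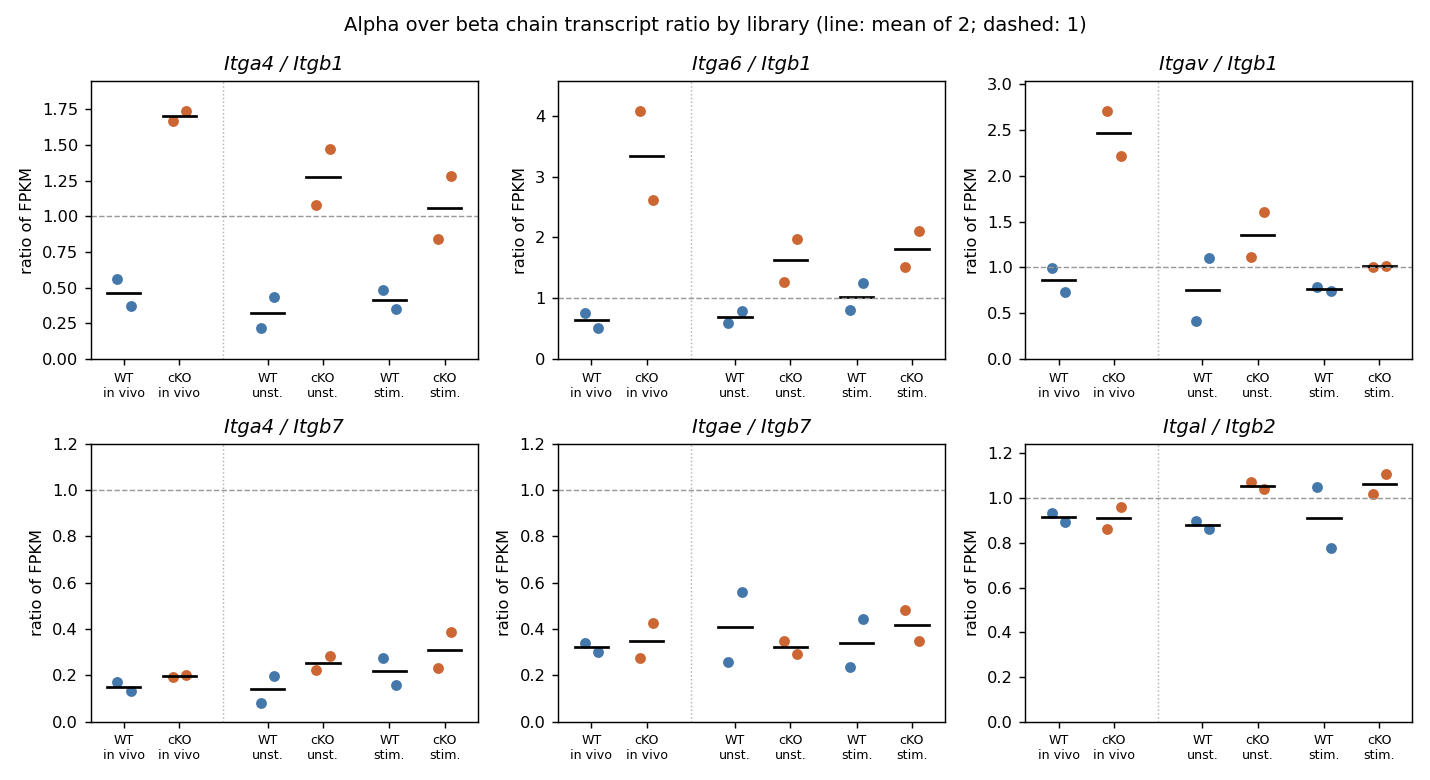
Ratio of alpha to beta chain FPKM (vertical axes from 0) for 6 known pairs in the 6 groups; each point is 1 library, each line the mean of 2, and the dashed line marks equal levels. Itga4 over Itgb1 lies under 1 in all 6 WT libraries and over 1 in 5 of 6 cKO libraries, while Itgae over Itgb7 shows overlapping genotypes.

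Of the 9 members 1, Itgb3, rose with stimulation in vitro, in both genotypes. In WT it had 7.31 and 4.53 FPKM unstimulated and 18.7 and 18.0 stimulated, and in cKO 9.47 and 6.01 unstimulated and 21.1 and 18.1 stimulated. All 4 stimulated libraries were above all 4 unstimulated ones, with means 3.10 and 2.53 times higher. The log2 fold change was 1.51 in WT (SE 0.27, interval 0.89 to 2.13, adjusted p = 0.0316, limma) and 1.26 in cKO (SE 0.27, interval 0.64 to 1.89, adjusted p = 0.0446). Itgb3 was 1 of 9 members called in each genotype, where 2.43% of genes were called in WT and 4.58% in cKO. Both calls were near the threshold: without WT stimulated replicate 2 the WT value was 1.54 (adjusted p = 0.125) and without cKO unstimulated replicate 2 the cKO value was 0.97 (adjusted p = 0.329), and the call was also lost without WT unstimulated replicate 2, cKO stimulated replicate 1 or 2 in WT, and without any other cKO library in cKO. Over all alternatives the adjusted p of Itgb3 was 0.0158 to 0.213 in WT and 0.0166 to 0.48 in cKO, and its sign was positive in each.

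Itgb8, the alpha V partner that releases TGF-beta and a chain outside the 9, went the same way. It had 6.60 and 16.5 FPKM in unstimulated WT and 29.9 and 32.5 in stimulated WT. In cKO it had 9.58 and 10.0 FPKM unstimulated and 24.9 and 35.9 stimulated. Stimulated libraries were again higher without overlap, and the difference did not pass (log2 fold change 1.48, SE 0.36, adjusted p = 0.0819 in WT, and 1.52, SE 0.36, adjusted p = 0.0587 in cKO, limma). Itgav, the chain both pair with, was not called, with log2 fold changes of 0.01 and -0.31 in WT and cKO (adjusted p of 0.988 and 0.601).

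The ratio of Itgav to its beta chains was therefore smallest after stimulation. Itgav over Itgb3 was 3.73 to 12.4 in unstimulated WT and 2.11 to 2.21 in stimulated WT, and 3.85 to 5.98 and 1.41 to 1.56 in cKO. Itgav over Itgb8 was 3.40 to 4.13 and 1.17 to 1.38 in WT and 3.59 to 3.81 and 0.787 to 1.2 in cKO. In vivo the values were 8.71 to 9.05 in WT and 7.69 to 9.08 in cKO for Itgb3, and 13.3 to 17.5 in WT and 6.10 to 8.49 in cKO for Itgb8. Alpha V transcript exceeded each of these beta chains in every library but 1, a stimulated cKO library in which Itgb8 was higher.

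**Figure D4:**
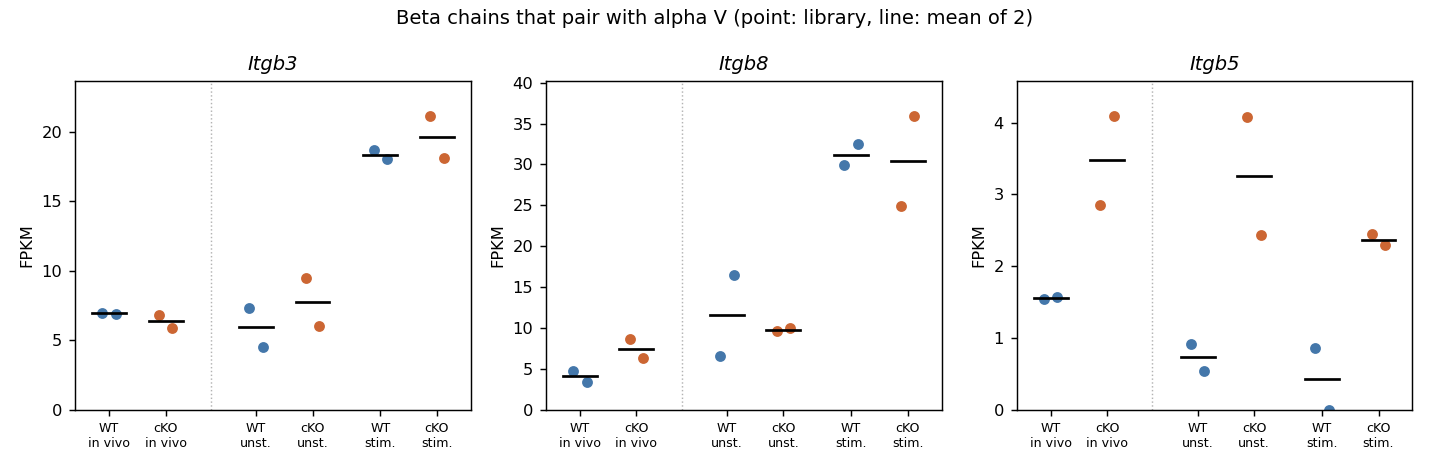
Level in FPKM (vertical axes from 0, scaled per gene) of Itgb3, Itgb8 and Itgb5, beta chains that pair with alpha V, in the 6 groups; each point is 1 library and each line the mean of 2. Itgb3 and Itgb8 are higher in the 4 stimulated libraries (18.0 to 21.1 and 24.9 to 35.9) than in the other 8, and Itgb5 stays under 5 FPKM.

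The remaining 8 members did not pass for stimulation in either genotype. Without overlap, Itga6 was higher and Itgb2 lower in stimulated WT, and Itga6 was higher and Itgb7 and Itgav lower in stimulated cKO. With Itgb3 this made 2 members higher and 1 lower in WT, where 18.8% and 22.9% of genes stood apart so, and 2 higher and 2 lower in cKO, where 20.7% and 44.1% did. Log2 fold changes in WT were -0.49 for Itgb7 (adjusted p = 0.346, limma), 0.35 for Itga6 (0.414), -0.21 for Itgb2 (0.473), 0.23 for Itga4 (0.669), -0.17 for Itgal (0.596) and -0.17 for Itgb1 (0.694). Itgae had the widest error, -0.70 (SE 0.42, adjusted p = 0.401).

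In cKO the same differences were -0.45 for Itgb7 (adjusted p = 0.361, limma), 0.24 for Itga6 (0.581), -0.15 for Itgb2 (0.62), -0.20 for Itga4 (0.726), -0.13 for Itgal (0.703), 0.07 for Itgb1 (0.891) and -0.09 for Itgae (0.937). Among genes as a whole the cKO response had a median of -0.14 in FPKM as deposited and of -0.02 after median-of-ratios scaling, a shift to set beside these small values. Under that scaling Itgae and Itgal turned to 0.05 and 0.01. The members' median was -0.17 in WT, where all genes had -0.04, and -0.13 in cKO.

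No member passed the interaction test, which asks whether the stimulation response differs between genotypes. Limma called 0 of 9 members and 0.0% of 10710 genes. At an unadjusted p under 0.05 there were 0 members and 3.55% of genes. For Itgb1 the interaction was 0.24 (SE 0.29, interval -0.44 to 0.92, adjusted p = 0.999) and for Itgae 0.61 (SE 0.59, interval -0.75 to 1.98), so differences well over a doubling lie inside some of these intervals. Itga4 had -0.43, Itgav -0.32, Itgb3 -0.25 and Itga6 -0.11, and Itgb2, Itgb7 and Itgal lay between 0.04 and 0.06.

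Of the 17 other integrin chains, 9 could be tested in vivo and 6 in vitro, and limma called 0 in each of the 6 comparisons. At an unadjusted p under 0.05 there were 4, 2 and 1 of them for genotype in vivo, unstimulated and stimulated, 1 for each stimulation response and 0 for the interaction. Of all genes, 13.0%, 6.56% and 14.1% reached that p for genotype in the 3 settings. For the stimulation response 18.7% did in WT and 21.4% in cKO, and for the interaction 3.55%. The list's genotype medians were 0.14, 0.36 and 0.07, where all genes had -0.02, 0.02 and -0.05. At least 5 FPKM on average in some group was reached by Itgb8, Itga3 and Itga5. Itgb8 had 4.71 and 3.44 FPKM in WT and 8.62 and 6.30 in cKO in vivo, and Itga3, a laminin receptor chain, 2.16 and 2.55 against 3.76 and 5.75. Both were higher without overlap in cKO (log2 fold changes 0.73, adjusted p = 0.205, and 0.76, adjusted p = 0.2, limma). Itga5, the fibronectin receptor chain that pairs with beta 1, had 3.43 and 2.70 FPKM in WT and 5.10 and 5.23 in cKO unstimulated (log2 fold change 0.61, adjusted p = 0.674). Itgb5, with the smallest p in all 3 genotype comparisons, had 1.55 and 1.57 FPKM in WT and 2.86 and 4.09 in cKO in vivo (log2 fold change 0.79, SE 0.18, adjusted p = 0.147). It had 0.915 and 0.545 FPKM in WT and 4.08 and 2.44 in cKO unstimulated, and 0.86 and 0 against 2.45 and 2.29 stimulated. Itga5 and Itgb5 were thus higher in cKO without overlap in all 3 settings, which held for 2.42% of the 9842 genes tested in both tables.

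Proteins that bind integrin tails or switch integrins on did not pass between genotypes. Of 46 such genes 38 were tested in vivo and 39 in vitro, and limma called 0 in each genotype comparison, with 8, 0 and 8 at an unadjusted p under 0.05 in vivo, unstimulated and stimulated where 13.0%, 6.56% and 14.1% of all genes reached it. The list's medians were -0.03, 0.03 and -0.01. The smallest p belonged to Evl, an actin regulator of the Ena/VASP family, in vivo (43.0 ± 2.76 FPKM in cKO and 65.6 ± 0.0141 in WT, SD, n = 2 each, log2 fold change -0.60, adjusted p = 0.0701). In stimulated cells they belonged to the tetraspanin gene Cd9 (16.3 ± 4.37 against 34.9 ± 8.86 FPKM, adjusted p = 0.191) and to Lpxn, a paxillin relative (48.2 ± 3.99 against 69.7 ± 3.08, adjusted p = 0.192).

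With stimulation, Rasgrp1 was called higher and Rasgrp2 lower in both genotypes. Rasgrp1, which activates Ras below the T cell receptor, rose in WT from 31.6 ± 3.27 to 81.9 ± 18.6 FPKM (log2 fold change 1.33, adjusted p = 0.012, limma) and in cKO by 1.11 on the log2 scale (adjusted p = 0.0198). Rasgrp2, which activates the integrin switch Rap1, fell in WT from 34.7 ± 4.90 to 16.7 ± 2.96 FPKM (-1.02, adjusted p = 0.0462) and in cKO from 38.3 ± 0.614 to 11.8 ± 2.35 (-1.63, adjusted p = 0.0079). In WT 1 of 39 was called higher and 2 lower, the other being Dok1 (-1.09, adjusted p = 0.0465), where 1.61% of genes were called higher and 0.822% lower. In cKO 1 was higher and 6 lower, with 2.08% and 2.49% of genes. The lower ones were Rasgrp2, Cd9 (-1.41), Tspan32 (-1.40), Evl (-1.16), Lpxn (-0.86) and Actn1 (-0.76). The list's median was -0.15 in WT and -0.26 in cKO.

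Among integrin ligands 9 of 33 were tested in vivo and 10 in vitro, and limma called 0 for genotype, with 4, 2 and 2 at an unadjusted p under 0.05 in vivo, unstimulated and stimulated, where 13.0%, 6.56% and 14.1% of all genes reached it. Fn1, which encodes fibronectin, was low in WT and higher on average in cKO, without passing the test: 0.595 ± 0.0636 against 3.15 ± 0.884 FPKM in vivo (SD, n = 2 each, log2 fold change 1.36, adjusted p = 0.0565, limma), 0.914 ± 0.0755 against 7.29 ± 0.969 unstimulated (2.11, adjusted p = 0.151) and 3.36 ± 2.42 against 11.4 ± 0.798 stimulated (1.62, adjusted p = 0.147). Lama5, the laminin alpha 5 chain, had 0.560 ± 0.0566 against 3.65 ± 1.51 FPKM in vivo (1.54, adjusted p = 0.0625). It rose with stimulation in WT from 0.409 ± 0.155 to 15.9 ± 0.943 FPKM (3.59, adjusted p = 0.00114) and in cKO from 2.51 ± 0.247 to 36.1 ± 11.9 (3.37, adjusted p = 0.00206), the 1 ligand called in each genotype, where 2.43% of genes were called in WT and 4.58% in cKO. The ligand list's median was 0.27 in vivo, 0.25 unstimulated and 0.56 stimulated for cKO over WT, where all genes had -0.02, 0.02 and -0.05.

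The TGF-beta genes that alpha V and alpha E integrins connect to were tested for 17 of 21, with 0 called by limma for genotype, and 2, 0 and 4 at an unadjusted p under 0.05 in vivo, unstimulated and stimulated (13.0%, 6.56% and 14.1% of all genes). Their medians were -0.06, -0.08 and -0.23. With stimulation 2 were called higher in WT, as were 1.61% of all genes. Lrrc32, which holds latent TGF-beta on the Treg surface, rose from 168 ± 12 to 384 ± 59.3 FPKM (1.18, adjusted p = 0.0253), and Furin, which cuts the TGF-beta precursor, from 48.0 ± 7.03 to 107 ± 16.3 (1.14, adjusted p = 0.0231). In cKO 1 was called higher, Furin, from 52.2 ± 2.66 to 108 ± 19.2 FPKM (1.03, adjusted p = 0.0264), where 2.08% of genes were. Limma called the interaction for 0 genes of these 4 lists, as for all genes, with 2 adaptors and none of the others at an unadjusted p under 0.05.

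Markers of other cells moved with genotype, and integrins are also made by those cells. The summed level of 16 B cell genes was 249 and 285 FPKM in WT and 162 and 201 in cKO in vivo, 145 and 111 against 339 and 354 unstimulated, and 135 and 97.0 against 286 and 273 stimulated. The sum was lower in cKO in vivo and higher in cKO in vitro. Cd37 made up most of it in vivo, with 187 ± 11.9 FPKM in WT and 152 ± 19.8 in cKO. In vitro Cd37 had 82.4 ± 28.3 against 95.2 ± 2.22 FPKM unstimulated and 62.3 ± 16.7 against 75.4 ± 5.24 stimulated. Of the B cell genes tested, 12 of 12 in vivo were below 0, 2 of them called (limma). In both culture states 15 of 15 were above 0, with 2 called unstimulated and 1 stimulated. Over all genes 0.144% were called lower in vivo, and 0.056% unstimulated and 0.0187% stimulated were called higher. At an unadjusted p under 0.05 there were 11, 14 and 13 of these B cell genes, against 13.0%, 6.56% and 14.1% of all genes. The defining gene Cd79a was at 21.8 ± 6.02 and 6.24 ± 1.03 FPKM in WT and cKO in vivo and at 9.17 ± 0.390 and 57.2 ± 11.4 unstimulated. Their part in the members' values, those of Itgb1, Itga4 and Itga6 among them, was not tested.

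Myeloid genes, which include the integrin chains Itgam and Itgax, summed over 18 genes to 65.8 and 54.8 FPKM in WT and 38.1 and 58.4 in cKO in vivo. Over 17 genes in vitro they summed to 15.8 and 21.0 against 188 and 53.8 unstimulated and 16.3 and 7.94 against 125 and 48.3 stimulated. Erythroid genes summed to 43.2 to 68.0 FPKM in vivo and in culture to 45.6 and 1313 in unstimulated WT, 51436 and 5466 in unstimulated cKO, 339 and 2091 in stimulated WT and 42040 and 7009 in stimulated cKO. Limma called 0 myeloid genes for genotype. Of 11 erythroid genes tested unstimulated it called 1, Hbb-bs (log2 fold change 12.39, adjusted p = 0.0189), where 0.056% of genes were called higher. At an unadjusted p under 0.05 there were 3 and 4 of 11 myeloid genes unstimulated and stimulated. Of 11 erythroid genes there were 6 in each state, against 6.56% and 14.1% of all genes. Both cKO replicate 1 libraries had the highest sums for either list. Without these 2 libraries the Itgb1 difference between genotypes was -1.34 unstimulated and -0.88 stimulated (adjusted p = 1.0 in both, limma), with 1 cKO library left in each state, which is assumed to vary like the other groups. Itgb3, Itgae and Itga6 in stimulated cells then turned to -0.02, -0.04 and 0.17. With the haemoglobin genes removed and all libraries brought to a common sum, Itgb1 had -1.70 in vivo (adjusted p = 0.0173), -1.06 unstimulated (0.218) and -0.81 stimulated (0.178). Neither fit can measure what myeloid or erythroid cells add to the integrin values. The cKO libraries kept still held 5466 and 7009 FPKM of erythroid genes. Removing haemoglobin genes leaves any other transcript of those cells in place. That part was not tested.

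Platelet genes matter for Itgb3, whose protein platelets carry in large amounts with the alpha IIb chain. Their summed level over 12 genes was 8.20 and 8.66 FPKM in WT and 6.12 and 8.6 in cKO in vivo. Over 13 genes it was 5.19 and 7.01 in unstimulated WT, 2.82 and 5.59 in stimulated WT, 23.0 and 10.7 in unstimulated cKO and 23.0 and 8.63 in stimulated cKO. Of the 13 genes, 4 and 9 were listed at 0 in the unstimulated WT libraries and 7 and 10 in the stimulated ones. Their part in the Itgb3 values was not tested.

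The 12 CD8 T and NK cell genes summed to 83.5 and 97.7 FPKM in WT and 86.2 and 93.8 in cKO in vivo, to 21.9 and 15.0 against 36.7 and 22.9 unstimulated, and to 25.8 and 12.5 against 35.8 and 28.4 stimulated. In both culture states the sum was higher in cKO without overlap. Nkg7 had 6.41 ± 0.335 FPKM in WT and 14.1 ± 4.23 in cKO unstimulated, and 8.67 ± 2.42 against 18.6 ± 1.95 stimulated. Of the 6 genes tested, 4 were above 0 and 2 below unstimulated, and 5 above and 1 below stimulated. In WT replicate 2, 6 of the 12 genes were at 0 unstimulated and 9 stimulated. The part of these genes in the integrin values was not tested. Sums of endothelial and stromal genes lay between 13.1 and 55.1 FPKM over all 12 libraries, and those of pan T cell genes between 1560 and 3107. Genes of conventional CD4 T cells summed to 2246 and 2316 FPKM in WT and 2561 and 2616 in cKO in vivo, to 1417 and 1173 against 1482 and 1492 unstimulated, and to 801 and 816 against 913 and 913 stimulated. The sum was higher in cKO in all 3 settings. The chemokine receptor gene Ccr7 made up most of it in vivo, with 1440 ± 27.9 FPKM in WT and 1700 ± 101 in cKO. In vivo Cd40lg, Il7r, Igfbp4, Dapl1, Il2 and Ifng were lower on average in cKO. The 1 gene of the list called for genotype, Cd40lg, fell in vivo by 1.2 on the log2 scale (adjusted p = 0.0373, limma), where 0.144% of all genes were called lower. The list's part in the integrin values was not tested.

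The transcripts whose levels most resembled Itgb1 were sought among 9842 genes, by the smaller of the Pearson correlations over the 4 in vivo and the 8 in vitro libraries. They were Gna13, a G protein subunit (0.971 and 0.963), the cytokine gene Il10 (0.996 and 0.929), Sgms1 (0.984 and 0.912), Ppfibp1 (0.990 and 0.908) and Sh3bgrl2 (0.980 and 0.905). Il10 had 75.0 ± 7.80 FPKM in WT and 43.5 ± 0.997 in cKO in vivo, 49.5 ± 8.38 against 8.53 ± 0.559 unstimulated and 34.4 ± 1.43 against 10.4 ± 3.92 stimulated. Like Itgb1 it was lower in cKO on average in each setting. For Itgae the nearest were Sh3bp4 (0.969 and 0.923), Itm2c (0.936 and 0.872), Tpi1 (0.995 and 0.863), Cyb5r4 (0.870 and 0.848) and Lmna (0.832 and 0.898), which follow differences between libraries of 1 group more than the genotypes. These are descriptions over few libraries that share depth and composition, and the nearest of 9842 genes will be close by selection.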

How the data were processed

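Sample titles gave the groups. FPKM values were deposited by the authors in separate tables for the 4 in vivo and the 8 in vitro libraries. HISAT2 2.2.1, StringTie 2.1.1 and the builds mm10 and hg19 are listed per the submitters' processing notes, with no role given. The in vivo columns carry no replicate number, so first and second follow the table's order. A further 4 per-sample columns match no sample here and were not used. Entrez numbers in vivo were mapped to symbols through RefSeq, with 36 of 16232 genes unmatched. Of the 24421 in vitro names, 1066 were matched through a synonym and 151 were not matched.

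FPKM are not counts and whole reads could not be recovered, so limma 3.58.1 (R 4.3.3) was run within each table on log2(FPKM + 1) (eBayes with an intensity trend, two-sided, Benjamini-Hochberg adjustment over all genes tested, called under 0.05). Genes needed a mean of at least 1 FPKM. The 8 in vitro libraries were fitted in 1 model. Fold changes on this scale understate low genes. The fits were tested on simulated data. A gene alone, with 2 libraries against 2, cannot reach an exact permutation p under 0.333, and p-values measure only the spread between these libraries, which may be technical.

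The members and gene lists were chosen with earlier results of these data known. All 9 members are named in every comparison. Of each pathway list, up to 4 called genes with the largest change, or up to 2 uncalled ones with the smallest p, are named, with other called ones added after their values were seen, and other integrin chains where some group averaged 5 FPKM or more. Lists were pathways (other integrin chains, adaptors, ligands, TGF-beta genes) and markers of Treg, T, B, myeloid, platelet, erythroid, CD8 and NK, conventional CD4, and endothelial and stromal cells. Alternatives were a pseudocount of 0.1, no filter or a minimum of 5 FPKM, 4 scalings, eBayes without trend, only the groups compared, the replicate number as a block, and leaving out libraries.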

Additional observations from a re-analysis of the deposited data

How the results depend on the processing

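Itgb1 kept its sign in every alternative for genotype, and its call in vivo in all but 1, no filter on low values (adjusted p = 0.292, limma), where the number of called members was 0 and 0 of 16232 genes were called. With each in vivo library left out in turn the number was 1 to 6. For stimulation in WT the number went from 1 to 0 with no filter (Itgb3 adjusted p = 0.213), without the trend (0.055), with only the groups compared (0.119), and without both WT replicate 2 (0.107) or both cKO replicate 1 libraries (0.13), and it was 0 to 1 with each library left out. For stimulation in cKO it went from 1 to 0 with a pseudocount of 0.1 (0.0538), no filter (0.197), no trend (0.0726) and without both cKO replicate 1 libraries (0.48), and it was 0 to 1 with each library left out. It stayed 0 in every alternative for genotype in vitro and for the interaction, and over the 8 fits that left out 1 library its range there was 0 to 0.

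Of the members' log2 fold changes under an alternative, 906 kept direction and call, 18 lost and 6 gained a call, and 69 changed sign, each of a difference that was not called. Unstimulated, Itgb7 was 0.00 by quantile normalization, and Itgav was 0.40 without both WT replicate 2 libraries. Stimulated, Itgb2, Itgb7 and Itga6 were 0.09, 0.07 and 0.08 by median-of-ratios scaling, 0.10, 0.07 and 0.09 by quantile normalization, 0.03, 0.01 and 0.02 without haemoglobin genes, and 0.05, 0.13 and 0.28 without both WT replicate 2 libraries. When both cKO replicate 1 libraries were dropped, Itgb3, Itga6 and Itgae were -0.02, 0.17 and -0.04 there. In the cKO response Itgae was 0.05, 0.02, 0.04 and 0.03 by median-of-ratios, quantile, common-sum and haemoglobin-free scaling, Itgal was 0.01 by the first, and Itga4 was 0.10 without both cKO replicate 1 libraries. In the interaction Itgb3, Itga6 and Itgal were 0.02, 0.18 and -0.04 without both WT replicate 2 libraries, and Itga6 was 0.04 without both cKO replicate 1 libraries. The cause was not tested.

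With each library left out in turn, sign changes gave these ranges. In vivo they were -0.62 to 0.34 for Itgae, -0.46 to 0.01 for Itgal and -0.02 to 0.35 for Itga4. Unstimulated they were -0.17 to 0.04 for Itgb2, -0.41 to 0.29 for Itgb7, -0.64 to 0.03 for Itgae and -0.62 to 0.40 for Itgav. Stimulated they were -0.02 to 0.20 for Itgb3, -0.31 to 0.28 for Itga6, -0.29 to 0.90 for Itgae, -0.12 to 0.11 for Itgb2 and -0.18 to 0.13 for Itgb7. In the WT response they were -0.36 to 0.02 for Itgb1, -0.05 to 0.51 for Itga4 and -0.50 to 0.52 for Itgav, and in the cKO response -0.43 to 0.26 for Itgae, -0.19 to 0.34 for Itgb1 and -0.44 to 0.04 for Itga4. In the interaction they were -0.54 to 0.05 for Itgb3, -0.02 to 0.51 for Itgb1, -0.06 to 0.18 for Itgb2, -0.31 to 0.39 for Itgb7, -0.11 to 0.20 for Itgal, -0.41 to 0.19 for Itga6 and -0.83 to 0.19 for Itgav.

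The labels do not say that replicate numbers pair libraries in vitro. Differences between replicates 1 and 2 correlated at 0.42 between the cKO states and 0.239 between the WT states, and at -0.138 to 0.058 across genotypes. With the replicate block the number of called members was 0 unstimulated, 0 stimulated, 1 for the WT response, 1 for the cKO response and 0 for the interaction, as without it. Over all genes the calls for stimulated cKO over WT went from 2 to 0 with it. In vivo no paired analysis was possible because the columns carry no replicate number. Depth is unknown, so no counting error stands behind these levels.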
